A study of Mus musculus with 12 samples.

Results

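Integrins are cell surface receptors made of an alpha and a beta chain that bind matrix proteins or receptors on other cells, and leukocytes use them to stop on vessel walls, to cross into tissue and to take up debris. The chains pair in fixed combinations: alpha 4 joins beta 7 or beta 1, alpha L, alpha M and alpha X join beta 2, and alpha v joins beta 5 or beta 1. Microglia are known for CD11b, the alpha M chain, which the sort of these cells used as a gate. The measurements below are the RNA levels of 10 chains (Itgb7, Itga4, Itgam, Itgax, Itgal, Itgb1, Itgb2, Itgb5, Itgav and Itga6), taken by symbol from the 31053 features in the deposited matrices, all 10 of which were found.

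C57BL/6J mice were conditioned with busulfan and given Lin- hematopoietic stem and progenitor cells (HSPCs) of male donors, transduced with the lentiviral vector LVV.GFP, either into a vein (i.v.) or into a brain ventricle (i.c.v.). Animals of both routes also received untransduced total bone marrow i.v. some days later. Whole brains of 1 female and 1 male mouse per route were dissociated and CD45+ CD11b+ CX3CR1+ cells were sorted into GFP+ cells, called microglia-like cells (MLCs), and GFP- cells, called endogenous microglia, which gives 4 GFP+ and 4 GFP- libraries from 4 mice. The labels give the treated mice an age of 22 to 28 weeks, the methods describe tissue taken about a year after dosing, and nothing in the counts decides between them. Treatment-naive C57BL/6J mice, 8 to 12 weeks old by the labels and a single animal at the upper end of that range by the methods, gave 1 library each of microglia, astrocytes, neurons and peripheral blood mononuclear cells (PBMCs), and the PBMCs are the blood reference here.

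Levels are UMI counts per 1000000 (CPM) summed over those barcodes of a library that had 200 genes or more and no more than 10% mitochondrial UMIs, which kept 30775 cells, 27439 of them from treated mice. GFP+ libraries held 8835197 to 16514669 UMIs and GFP- libraries 4970758 to 8105756, and the median cell had 3499 UMIs in GFP+ cells of the i.v. female against 842 to 1307.5 in the other 7 treated libraries. The vector's EGFP transcript stood at 16.8 to 33.3 CPM in GFP+ libraries and at 0 to 0.153 CPM in GFP- libraries, as labelled. At the cells' own depth, microglia markers, at least 3 of a list of 10, were found in 51.9% to 68.8% of GFP+ cells and 91.8% to 96.3% of GFP- cells. Markers of CNS-associated macrophages, at least 3 of 8, were found in 33.8% to 48.2% and 3.89% to 13.1%. The library labelled as naive neurons carried oligodendrocyte markers in 95.5% of its cells and neuron markers in 0.348%, so it is called by its label and no neuronal level is drawn from it. In sums over a library, fewer cells of a type and less RNA per cell cannot be told apart, and 3-prime UMI counts do not put different genes on one scale of level, so each chain is compared with itself only.

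The promoters of 4 chains are shown because the differences between the sorts and between the routes described most fully below concern them. The RefSeq table of the GRCm38.p6 assembly, with 250 bases before and 50 after each start, held 7 of the 10 chains and not Itgal, Itgb2 or Itga6. Capitals mark GAGGAA, which is TTCCTC when read from the other strand, the core that the myeloid factor PU.1 and other ETS factors bind, and TGTGGT, which is ACCACA when so read, the core that RUNX factors bind, both searched on both strands.
Itgb7, chr15:102231886-102232185, minus strand: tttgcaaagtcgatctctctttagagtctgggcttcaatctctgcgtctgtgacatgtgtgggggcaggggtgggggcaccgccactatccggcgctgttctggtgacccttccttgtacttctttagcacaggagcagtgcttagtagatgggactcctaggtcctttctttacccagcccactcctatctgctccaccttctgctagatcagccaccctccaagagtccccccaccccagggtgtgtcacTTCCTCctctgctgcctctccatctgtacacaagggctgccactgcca
Itgax, chr7:128129300-128129599, plus strand: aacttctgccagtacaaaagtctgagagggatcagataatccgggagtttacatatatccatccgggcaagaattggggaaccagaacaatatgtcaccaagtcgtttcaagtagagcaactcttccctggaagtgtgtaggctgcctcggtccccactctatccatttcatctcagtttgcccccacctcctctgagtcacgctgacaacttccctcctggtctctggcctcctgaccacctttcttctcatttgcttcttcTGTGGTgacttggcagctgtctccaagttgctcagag
Itga4, chr2:79255176-79255475, plus strand: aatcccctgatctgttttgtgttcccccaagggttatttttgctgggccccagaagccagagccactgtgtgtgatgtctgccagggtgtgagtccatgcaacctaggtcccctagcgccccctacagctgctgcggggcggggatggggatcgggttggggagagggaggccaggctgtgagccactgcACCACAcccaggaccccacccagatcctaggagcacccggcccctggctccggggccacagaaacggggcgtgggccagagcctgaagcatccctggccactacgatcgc
Itgam, chr7:128062390-128062689, plus strand: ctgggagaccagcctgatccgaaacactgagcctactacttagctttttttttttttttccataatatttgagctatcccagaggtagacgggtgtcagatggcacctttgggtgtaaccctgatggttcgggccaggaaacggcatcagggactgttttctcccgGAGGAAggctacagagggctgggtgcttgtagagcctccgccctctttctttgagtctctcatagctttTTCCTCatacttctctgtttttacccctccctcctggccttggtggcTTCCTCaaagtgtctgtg
The ETS letters occurred in 4 of the 7 promoters (Itgb7, Itgam, Itgb1 and Itgav) and in 28.3% of all 32851 promoters of this length, the RUNX letters in 2 of the 7 (Itga4 and Itgax) and in 16.8% of all, and the Itgb5 promoter held neither. A match describes the letters and is not a binding site.

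The first comparison asks how engrafted MLCs differ from the GFP- cells of the same mice. Cells derived from donor cells without GFP, such as the untransduced marrow, would fall in the GFP- sort, and their share was not tested. GFP+ cells had more Itga4 RNA, the alpha 4 chain that binds VCAM1 and fibronectin, and more Itgal RNA, the alpha L chain of LFA-1, and less Itgam, Itgb2, Itgb5 and Itgav. In the edgeR quasi-likelihood fit over 11756 genes with Benjamini-Hochberg adjustment, 2 of the 10 chains rose, where 16.6% of all genes tested did, and 4 fell, where 15.9% did. All 10 chains passed the filter on low counts, and their median log2 difference was -0.06 beside 0.01 over all genes. Itgb7, Itgax, Itgb1 and Itga6 did not pass the test. In the same fit 7 of 10 microglia markers fell and none rose, and 3 of 8 CNS-associated macrophage markers rose and 1 fell.

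**Figure D1:**
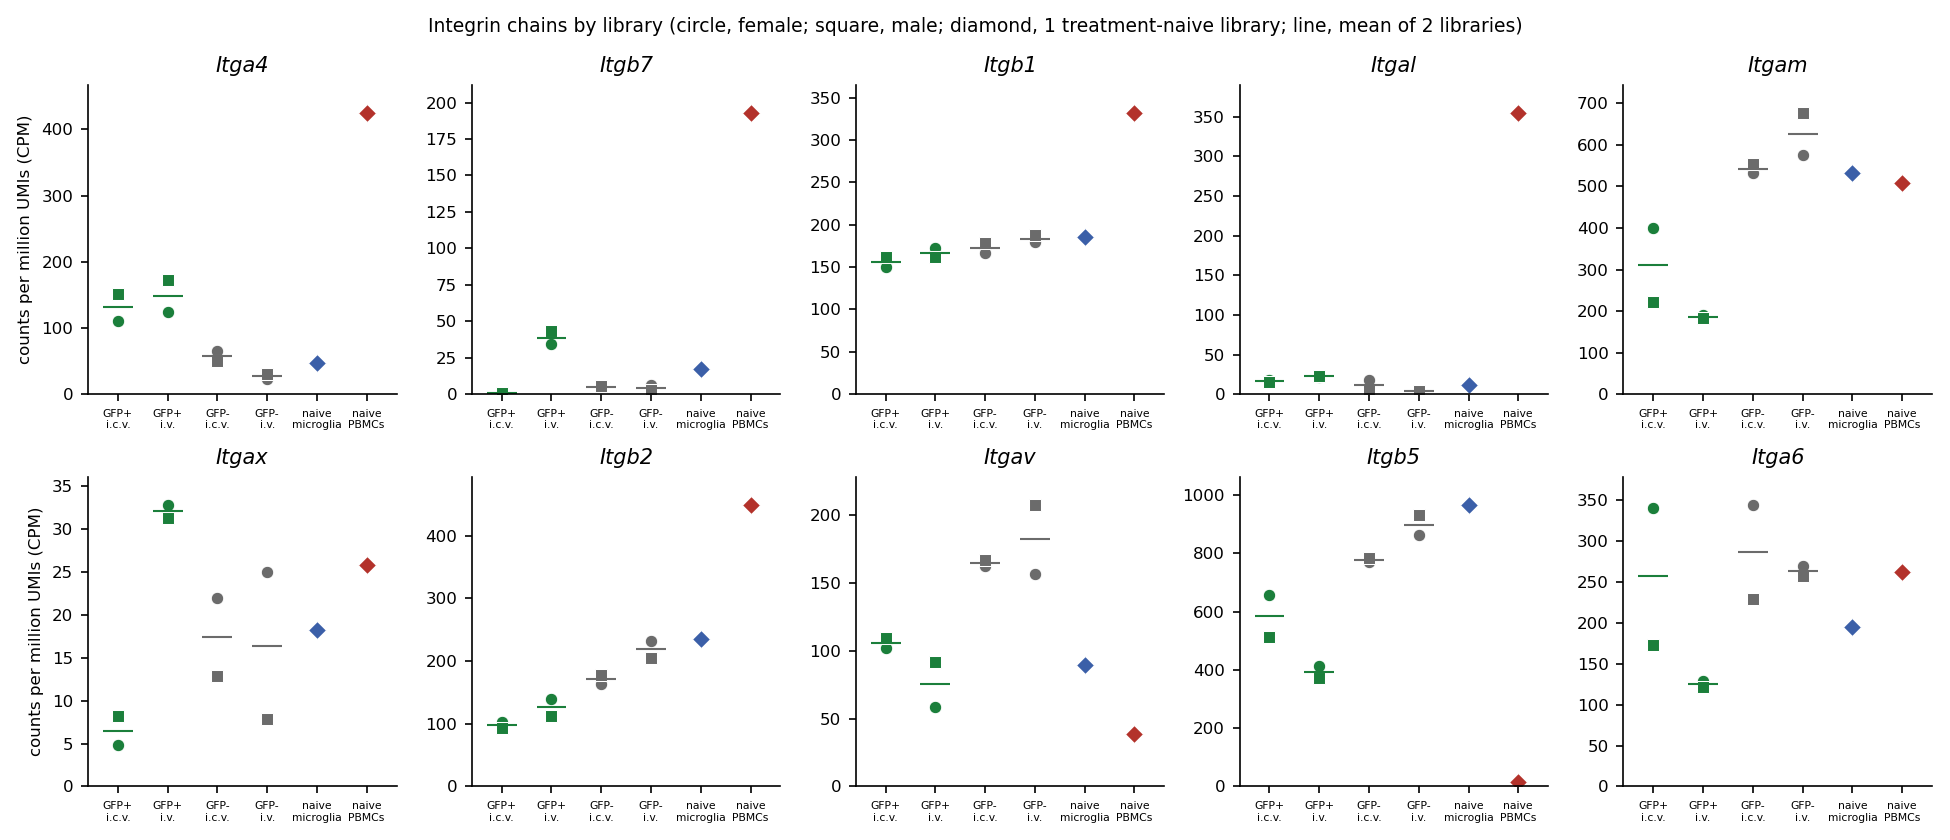
Level of each integrin chain in CPM (vertical axes, from 0, each with its own scale) in GFP+ and GFP- libraries by route and in the naive microglia and PBMC libraries; circles are females, squares males, diamonds single naive libraries and lines the mean of 2 libraries. Itga4 lies between 110.1 and 172 CPM in GFP+ libraries and between 23.3 and 65.9 CPM in GFP- libraries, and Itgb7 stands out in the GFP+ libraries of the i.v. mice, at 34.1 and 43.2 CPM.

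Itga4 (ENSMUSG00000027009, chr2:79255426-79333123, plus strand, overlapped on the other strand by Cerkl) stood at 110.1 and 152 CPM in GFP+ cells of the i.c.v. female and male and at 125 and 172 CPM in those of the i.v. female and male. In GFP- cells it stood at 65.9 and 50.4 CPM in the i.c.v. female and male and at 23.3 and 31.3 CPM in the i.v. female and male. Every GFP+ library was above every GFP- library, and the GFP+ library was higher in 4 of 4 mice. The means were 139.8 ± 27.8 and 42.7 ± 19.2 CPM (SD, n = 4 each), a log2 difference of 1.97 (SE 0.34, edgeR adjusted p = 0.0038), and the chain was called under all 22 alternatives run, from 1.34 with the i.c.v. mice alone to 2.85 without cells bearing CNS-associated macrophage markers.

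Itgb1 (chr8:128685654-128733200), the common beta 1 chain that joins alpha 4, alpha v and alpha 6, ranged from 149.6 to 172 CPM in GFP+ libraries and from 166 to 187 CPM in GFP- libraries, which overlap. Its mean was 161 ± 9.26 against 178 ± 8.80 CPM (n = 4 each), lower in GFP+ cells of all 4 mice. The fitted log2 difference was 0.15 (SE 0.10, edgeR adjusted p = 0.277), and the direction turned to -0.14 when libraries were scaled by their totals alone, so no direction is given. That scaling matters for the whole comparison: it moved the median over all genes from 0.01 to -0.27, and the share of calls that were higher in GFP+ cells from 51.1% of 3820 to 16.8% of 4573, while the same 2 chains rose and the same 4 fell.

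The other partner of alpha 4, Itgb7 (chr15:102215995-102231944, minus strand), which as alpha 4 beta 7 guides lymphocytes to the gut wall, did not separate the sorts. Its mean was 19.7 ± 22.2 CPM in GFP+ and 4.82 ± 1.35 CPM in GFP- libraries (n = 4 each), and the log2 difference of 2.37 had an SE of 1.11 (edgeR adjusted p = 0.128). It was called without either GFP+ library of the i.c.v. mice (2.76 and 2.77, adjusted p = 0.0488 and 0.0482). GFP+ cells were higher in the 2 i.v. mice and lower in the 2 i.c.v. mice, described with the routes.

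Among the leukocyte chains that pair with beta 2, Itgam (ENSMUSG00000030786, chr7:128062640-128118491, overlapped on the same strand by Gm49368, so its reads may be shared) encodes CD11b, the complement receptor chain of the sort gate. It stood at 399 and 223 CPM in GFP+ cells of the i.c.v. female and male and at 189.5 and 184 CPM in those of the i.v. female and male. In GFP- cells it stood at 532 and 554 CPM in the i.c.v. female and male and at 576 and 677 CPM in the i.v. female and male. No library of one sort reached the other, with GFP+ cells lower in 4 of 4 mice. The means were 249 ± 102 and 585 ± 64.2 CPM (SD, n = 4 each) and Itgam fell by 0.97 on the log2 scale (SE 0.21, edgeR adjusted p = 0.00975), a call lost in 1 of 22 alternatives, the i.c.v. mice alone (-0.65, adjusted p = 0.150). All sorted cells carried CD11b protein by the gate, and how that selection bears on the Itgam RNA level was not tested.

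Itgb2 (chr10:77530252-77565708), the shared beta 2 chain that these alpha chains need to reach the surface, ranged from 92.7 to 139 CPM in GFP+ and from 164 to 232 CPM in GFP- libraries, with no overlap. It fell by 0.50 on the log2 scale (SE 0.16, edgeR adjusted p = 0.0385), from 195 ± 30.3 to 112 ± 20.1 CPM (n = 4 each). The call was lost in 10 of 22 alternatives, all with the same direction, among them the loss of any 1 treated library other than the i.c.v. female's GFP- or the i.v. female's GFP+ library (-0.53 to -0.42, adjusted p = 0.0659 to 0.0944).

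Itgal (chr7:127296260-127335138), which with beta 2 forms LFA-1, the receptor that lets leukocytes arrest on ICAM1, stood at 17.5 and 14.8 CPM in GFP+ cells of the i.c.v. female and male and at 21.3 and 23.4 CPM in those of the i.v. female and male. In GFP- cells it stood at 4.02, 4.44 and 5.14 CPM in the i.v. female, the i.v. male and the i.c.v. male, and at 18.4 CPM in the i.c.v. female. The groups overlap through that library alone. The log2 difference was 1.49 (SE 0.48, edgeR adjusted p = 0.0406), and 2.39 (adjusted p = 5.0e-04) without it. The call was lost without any 1 of the 4 libraries of the i.v. mice or the i.c.v. male's GFP- library (1.27 to 1.42, edgeR adjusted p = 0.0814 to 0.109). In the i.c.v. female's GFP- library 21 cells with neutrophil markers held 18.1% of the Itgal UMIs, at 196 CPM (95% exact Poisson interval 129 to 285), and the list's summed level was 5970 CPM beside 61.3 to 983 CPM in the other 3 GFP- libraries. Without cells of blood lineages Itgal was still 14.9 CPM there, beside 2.62 to 3.80 CPM in the other 3.

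Itgax (chr7:128129547-128150657), the CD11c chain known from dendritic cells and from microglia in injury, averaged 19.3 ± 14.8 CPM in GFP+ and 16.9 ± 7.94 CPM in GFP- libraries (n = 4 each). The groups overlap, and the log2 difference was 0.52 (SE 0.62, edgeR adjusted p = 0.546).

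Of the matrix-binding chains, Itgb5 (chr16:33829665-33949338), whose pair with alpha v takes part in binding vitronectin and in uptake of dying cells, was 656 and 511 CPM in GFP+ cells of the i.c.v. female and male and 412 and 374 CPM in those of the i.v. female and male. In GFP- cells it was 771 and 785 CPM in the i.c.v. female and male and 863 and 932 CPM in the i.v. female and male. Every GFP+ library lay under every GFP- library. Itgb5 fell by 0.51 on the log2 scale (SE 0.15, edgeR adjusted p = 0.0300), and the call was lost in 10 of 22 alternatives, the block on the mouse (-0.53, adjusted p = 0.0524) and the loss of any 1 library other than those of the i.c.v. female (-0.53 to -0.42, adjusted p = 0.0530 to 0.0835) among them.

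Its partner Itgav (chr2:83724397-83806916, overlapped on the other strand by Gm13684 and Dnmt3l-ps1), the alpha v chain of vitronectin receptors, ranged from 58.6 to 109 CPM in GFP+ and from 156 to 207 CPM in GFP- libraries, again with no overlap. It fell by 0.66 (log2, SE 0.17, edgeR adjusted p = 0.0189), from 173 ± 23.1 to 90.4 ± 22.4 CPM, and by 0.33 (adjusted p = 0.321) when every cell was thinned to 500 UMIs. The call was also lost without the i.v. male's GFP- library (-0.59, adjusted p = 0.0626). Itga6 (chr2:71745616-71858416), a laminin receptor chain, ranged from 121 to 341 CPM in GFP+ and from 229 to 344 CPM in GFP- libraries. It is overlapped on the same strand by Gm13663 and Gm13662, so its reads may be shared, and on the other strand by Gm17250 and Gm13739. GFP+ cells were lower in 4 of 4 mice, but the libraries overlap and the log2 difference of -0.28 (SE 0.29) did not pass the test (edgeR adjusted p = 0.492). Itga6 was called lower in 2 of 22 alternatives.

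Across the 10 chains, the CPM of the 4 GFP+ libraries lay above all 4 GFP- libraries for 1 chain, Itga4, where 6.29% of all genes tested did so, and below them for 4 chains, Itgam, Itgb2, Itgb5 and Itgav, where 32.6% did. With 4 libraries against 4, the smallest p of a two-sided exact permutation test over libraries is 0.0286, which these 5 chains had, and it was 0.0571 for Itgb1 and 0.0857 for Itgal. That test treats the libraries as independent and ignores that each mouse gave a GFP+ and a GFP- library. The loss of 1 library moved the number of chains called from 6 to between 2 and 7, while the genes called over the whole table moved from 3820 of 11756 to between 2177 of 11982 and 3791 of 11981. It was 2 when the i.v. male's GFP- library was left out (Itga4 and Itgam stayed), 3 for the i.v. female's GFP-, the i.c.v. male's GFP- or the i.v. male's GFP+ library, and 7 for the i.c.v. female's GFP+ library.

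**Figure D2:**
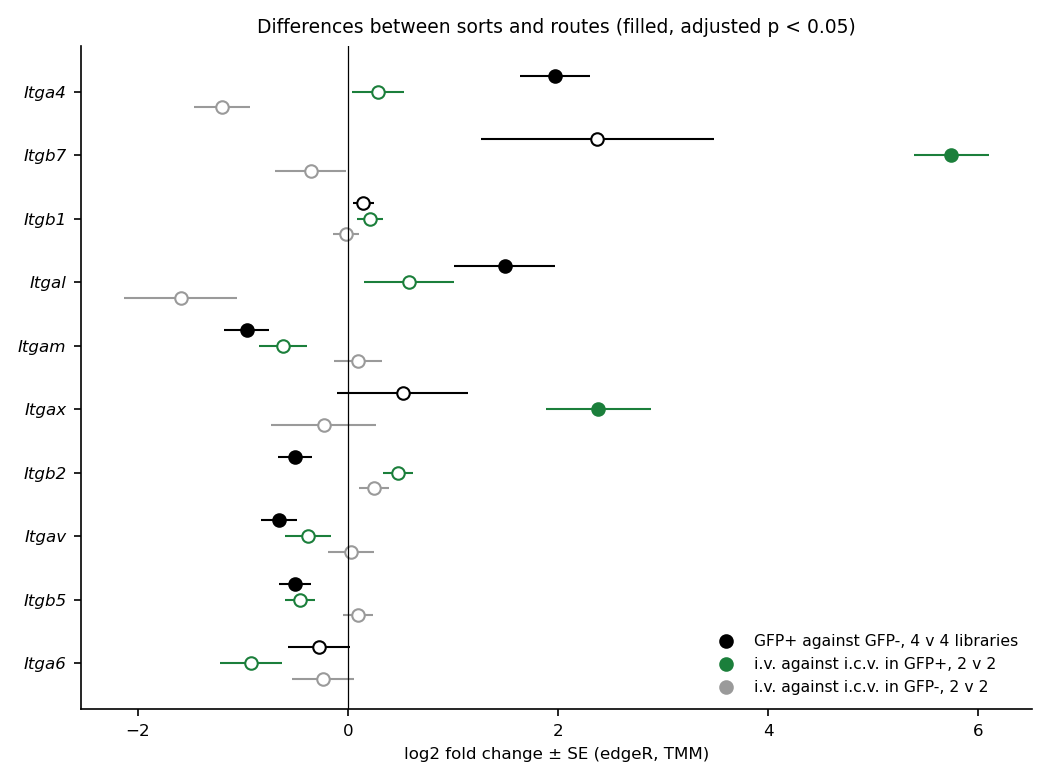
Log2 fold change ± SE of each chain (horizontal axis) from edgeR with TMM scaling, for GFP+ against GFP- (black), i.v. against i.c.v. in GFP+ cells (green) and i.v. against i.c.v. in GFP- cells (grey); filled points have an adjusted p under 0.05. Itgb7 lies farthest right, at 5.74 for the route within GFP+ cells, and no grey point is filled.

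The share of cells with a transcript was read after thinning every cell to 500 UMIs, which removes differences in depth. Itga4 was seen in 9.26% ± 2.34 of GFP+ cells and 1.84% ± 1.06 of GFP- cells (SD over 4 libraries each), with library ranges of 7.21% to 11.8% and 0.822% to 3.26%. Itgam went the other way, 12.4% ± 4.00 against 28.3% ± 1.80, as did Itgb5, 22.1% ± 4.38 against 37.9% ± 2.14, and Itgb2, 4.82% ± 0.536 against 10.3% ± 0.849, none of them with overlap between the libraries. Itgav differed less, 7.15% ± 1.91 against 9.71% ± 0.632, though its libraries also did not overlap. How many of all genes separate the sorts in this share was not counted. In CPM 6.29% of genes tested lay higher and 32.6% lower in GFP+ libraries without overlap. At the cells' own depth, which was greater in GFP+ libraries as a group, Itga4 was seen in 31.2% of GFP+ and 5.23% of GFP- cells, and the means of Itgam and Itgb5 stayed lower in GFP+ cells, but Itgb2 (25.7% against 22.7%) and Itgav (23.9% against 22.2%) had the higher mean in GFP+ cells. Itgb7, Itgal and Itgax were each seen in under 2% of thinned cells in every treated library, and no order is read from their shares.

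**Figure D3:**
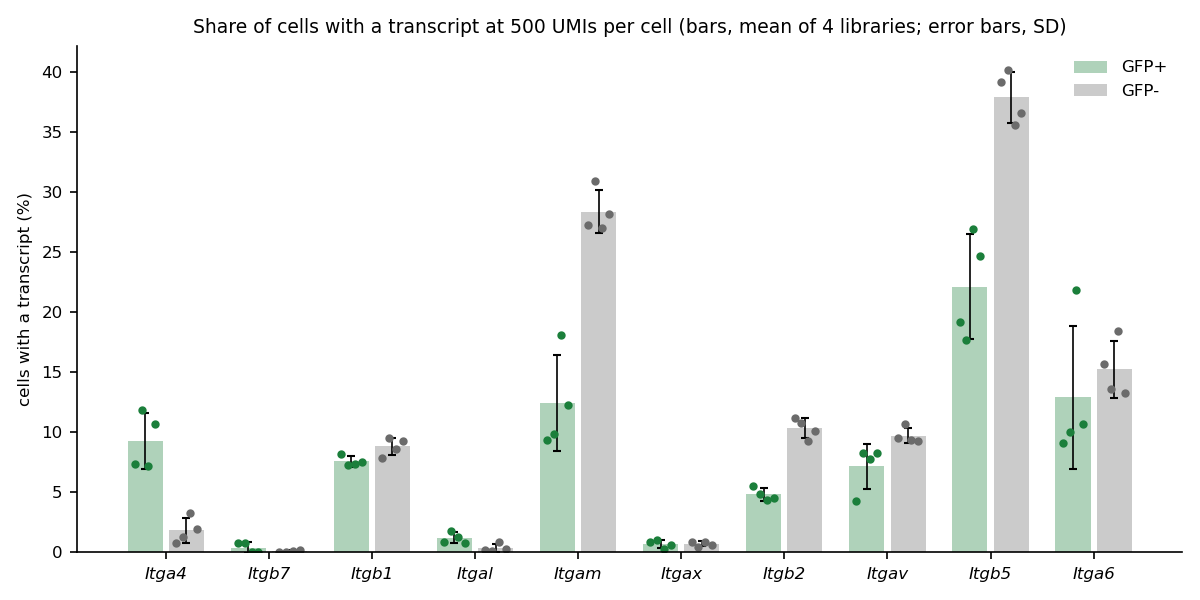
Share of cells with at least 1 transcript of each chain (vertical axis, percent, from 0) with every cell thinned to 500 UMIs; bars are means of 4 libraries, error bars SD and points libraries. The GFP+ bar is above the GFP- bar for Itga4, 9.26% against 1.84%, and below it for Itgam, 12.4% against 28.3%.

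The second comparison asks whether MLCs differ by the route of dosing. Among GFP+ cells, Itgb7 and Itgax were higher after i.v. than after i.c.v. dosing, 2 of the 10 chains where 2.56% of 12540 genes tested were higher, and no chain was lower, where 0.215% were. At an unadjusted p under 0.05, 6 of the 10 chains differed by route in this contrast, as did 2066 of the 12540 genes. It sets 2 libraries against 2, with the spread taken from all 8 treated libraries.

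Itgb7 was 34.1 and 43.2 CPM in GFP+ cells of the i.v. female and male and 0.905 and 0.642 CPM, from 8 and 7 UMIs, in those of the i.c.v. female and male. GFP- cells held 6.04 and 2.91 CPM in the i.v. mice and 4.93 and 5.40 CPM in the i.c.v. mice. The i.v. GFP+ libraries thus lay above all 6 other treated libraries and the i.c.v. GFP+ libraries below all 6. The log2 difference by route in GFP+ cells was 5.74 (SE 0.36, edgeR adjusted p = 9.0e-04), and Itgb7 was called under all 19 alternatives, at 4.93 to 7.30. With the mice of each route fitted alone, GFP+ cells had more Itgb7 than GFP- cells after i.v. dosing (3.52, adjusted p = 0.00198) and less after i.c.v. dosing (-2.57, adjusted p = 0.0150).

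Itgax was 32.8 and 31.3 CPM in GFP+ cells of the i.v. female and male and 4.87 and 8.16 CPM in those of the i.c.v. female and male. The pairs lay far apart, with the GFP- libraries, at 7.82 to 24.9 CPM, spread over much of the gap. The log2 difference of 2.39 (SE 0.50, edgeR adjusted p = 0.0452) was called in 9 of 19 alternatives. It lost its call without any 1 of the 4 GFP+ libraries (2.05 to 2.86, adjusted p = 0.0858 to 0.353), without either GFP- library of the i.c.v. mice (2.39, adjusted p = 0.0614 and 0.0621) and with cells thinned to 500 UMIs (1.0, adjusted p = 0.580).

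Cells with blood-lineage markers moved with the route in the same libraries, though not for every lineage. Cells with at least 3 markers of a blood lineage were 3.35% and 4.68% of GFP+ cells in the i.v. female and male, 0% and 0.113% in the i.c.v. female and male, and 0.154% to 0.643% of GFP- cells. Of the marker lists, 6 of 8 monocyte, 7 of 9 neutrophil, 3 of 6 tested dendritic cell, 1 of 3 tested T or NK cell and 1 of 1 tested mast cell or basophil genes were higher after i.v. dosing in GFP+ cells, where 2.56% of all genes tested were. None of 4 tested B cell or 2 tested platelet genes was called. No GFP+ cell had at least 3 mast cell or basophil markers, and 6 of those 8 were at 0 in both i.v. libraries. The summed level was 261 to 377 CPM after i.v. and 28.9 to 39.3 CPM after i.c.v. dosing for monocyte markers, with Chil3 and Plac8 at 0 in both i.c.v. libraries, and 212 to 435 against 7.02 to 40.6 CPM for dendritic cell markers. It was 1632 to 3272 against 1.81 to 7.70 CPM for neutrophil markers, 6 of 9 at 0 after i.c.v. dosing, and 15.4 to 25.7 against 0.275 to 0.340 CPM for T or NK cell markers, 8 of 11 at 0. B cell markers, at 171 to 184 against 193 to 195 CPM, and platelet markers, at 1.62 to 2.91 against 4.22 to 6.56 CPM, were not higher after i.v. dosing.

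With all cells of blood lineages left out, Itgb7 stood at 23.1 and 21.6 CPM in GFP+ cells of the i.v. female and male and at 0.905 and 0.644 CPM in those of the i.c.v. female and male, a log2 difference of 4.93 (SE 0.42, edgeR adjusted p = 0.00248). Itgax stood at 27.9 and 22.9 against 4.87 and 8.10 CPM, a log2 difference of 2.03 (SE 0.48) that no longer passed the test (adjusted p = 0.119). The route difference of Itgb7 was therefore smaller and still called without these cells, and cells with fewer than 3 markers remain in the sums.

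In the GFP+ libraries of the i.v. mice, cells with dendritic cell markers, 43 in the female and 54 in the male, held 21.3% and 51.4% of the Itgb7 UMIs. Their Itgb7 level was 187 CPM (95% exact Poisson interval 155 to 224) in the female and 224 CPM (195 to 256) in the male. Cells with monocyte markers, 54 and 29, had 184 CPM (151 to 221) and 125 CPM (90.3 to 168) of Itgb7 and held 19.7% and 10.1% of its UMIs, and cells with neutrophil markers, 14 and 25, had 0 and 4 Itgb7 UMIs. The PBMC library gave Itgb7 levels of 179 CPM (154 to 208) in monocyte-marked cells, 196 CPM (171 to 224) in B cell-marked cells and 504 CPM (353 to 697) in 6 cells with dendritic cell markers. These intervals cover counting error only, and cells were not called for doublets.

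Itgax followed the same cells, at 131 CPM (105 to 162) in the female and 106 CPM (86.9 to 129) in the male among cells with dendritic cell markers, which held 15.5% and 33.7% of the Itgax UMIs of their libraries. Itgal did not: it was 15.6 CPM (7.48 to 28.7) and 19.4 CPM (11.7 to 30.3) in those cells and 212 CPM (177 to 252) and 107 CPM (75.6 to 148) in the monocyte-marked cells of the i.v. female and male, which held 36.5% and 16.0% of the Itgal UMIs. In the PBMC library the monocyte-marked cells had 731 CPM of Itgal (678 to 787) and the cells with dendritic cell markers 126 CPM (57.6 to 239).

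**Figure D4:**
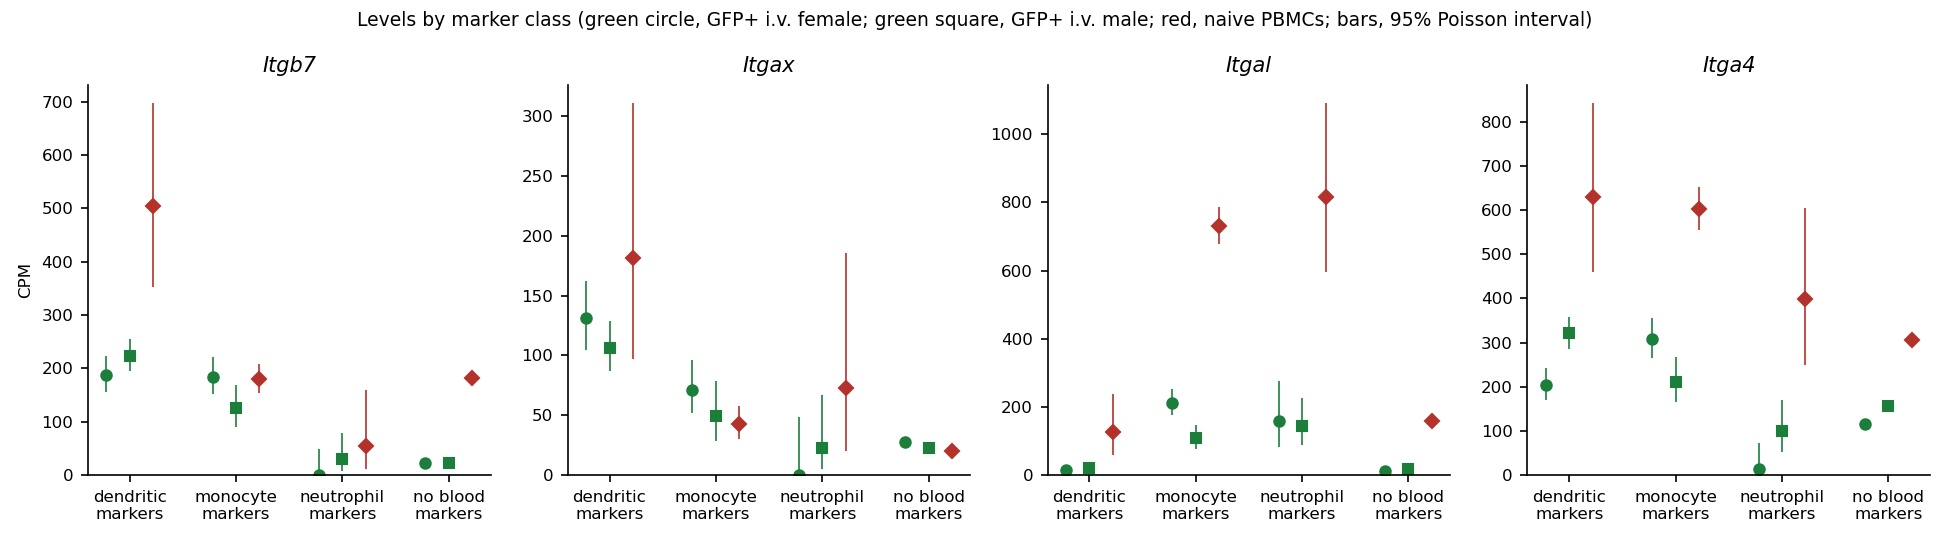
Level of Itgb7, Itgax, Itgal and Itga4 in CPM (vertical axes, from 0) in cells with at least 3 markers of a blood lineage and in cells without them, in the GFP+ libraries of the i.v. mice (green, circle female, square male) and in PBMCs (red); bars are 95% exact Poisson intervals for counting error. Itgb7 and Itgax are high in dendritic and monocyte-marked cells, and Itgal in monocyte and neutrophil-marked cells.

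The 8 other chains did not pass the test for route in GFP+ cells, though Itga6 was called lower after i.v. dosing by DESeq2 and with no filter on low counts. Itga4 (0.28, edgeR adjusted p = 0.617), Itgb1 (0.21, adjusted p = 0.453) and Itgal (0.58, adjusted p = 0.554) had SEs of 0.12 to 0.43. Itga6, at 129 and 121 CPM after i.v. and 341 and 174 CPM after i.c.v. dosing in the female and male, had -0.92 (SE 0.30, adjusted p = 0.168). Itgam had -0.62, Itgb5 -0.46, Itgav -0.38 and Itgb2 0.48, with adjusted p of 0.148 to 0.435. Without cells bearing CNS-associated macrophage markers, 6 chains were called, where calls over all genes also rose from 348 of 12540 to 2020 of 11932: Itgb7 and Itgax and Itgb2 (0.53) higher after i.v. dosing, and Itga6 (-1.48), Itgb5 (-0.98) and Itgam (-0.79) lower.

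Among GFP- cells no chain was called by route, where 0% of 12540 genes tested were called (1063 had an unadjusted p under 0.05, and DESeq2 called 73). The chains with an unadjusted p under 0.05 were Itga4 and Itgal. Itga4 was lower in GFP- cells of i.v. mice, 23.3 and 31.3 CPM, than in those of i.c.v. mice, 65.9 and 50.4 CPM, with no overlap, a log2 difference of -1.20 (SE 0.26, edgeR adjusted p = 0.389, DESeq2 adjusted p = 0.00328). CNS-associated macrophage markers moved with it, in 3.89% to 4.94% of GFP- cells after i.v. and 9.03% to 13.1% after i.c.v. dosing, with a summed level of 881 to 1223 against 1310 to 1591 CPM and no marker at 0, and without the cells bearing them Itga4 was 13.7 and 19.0 CPM after i.v. and 48.7 and 30.7 CPM after i.c.v. dosing in the female and male.

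Whether the sort difference depended on the route was tested by the interaction of the 2 factors. It called 1 of the 10 chains, where 1.91% of 12540 genes were called. That chain was Itgb7, with an interaction of 6.10 on the log2 scale (SE 0.50, edgeR adjusted p = 0.00673). Itga4 (1.49, SE 0.36, adjusted p = 0.0826), Itgax (2.62, adjusted p = 0.103) and Itgal (2.17, adjusted p = 0.149) had an unadjusted p under 0.05 and were called by DESeq2. With the mouse as a replicate block, 678 genes and 2 chains were called, Itgb7 and Itga4 (1.5, adjusted p = 0.0344).

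Because cells with CNS-associated macrophage markers were several times more frequent among GFP+ than GFP- cells, each chain was also summed within and outside those cells. Within them, none of the 10 chains separated the 4 GFP+ from the 4 GFP- libraries, where 5.06% of genes did in either direction. Itga4 averaged 125 ± 12.7 CPM in GFP+ and 106 ± 8.00 CPM in GFP- marker-bearing cells (n = 4 each), Itgam 225 ± 78.6 and 241 ± 65.1 CPM, Itgb5 508 ± 74.2 and 441 ± 67.2 CPM, and Itgb2 96.9 ± 20.9 and 106 ± 15.1 CPM. The GFP- sums rest on 512321 to 2823709 UMIs and the GFP+ sums on 5663593 to 9916257, so the GFP- values are less precise, and the overlap does not show that the levels were alike.

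In the other cells Itga4 was 162 ± 54.8 CPM in GFP+ and 28.0 ± 15.5 CPM in GFP- libraries and Itgal 26.2 ± 10.2 and 6.75 ± 6.80 CPM. Both were without overlap, 2 of 10 chains where 3.71% of genes lay higher. For Itgal the gap was narrow, 17.1 CPM from 54 UMIs in the lowest GFP+ library and 16.8 CPM from 89 UMIs in the highest GFP- library. Itgam was 298 ± 150.0 and 667 ± 59.5 CPM, Itgb5 478 ± 238 and 932 ± 60.4 CPM and Itgb2 138 ± 14.4 and 216 ± 23.5 CPM, 3 chains lower without overlap where 20.4% of genes lay lower. Fitted without the marker-bearing cells, 3 chains kept their call between the sorts, Itga4 (2.85, edgeR adjusted p = 0.00712), Itgal (2.30, adjusted p = 0.0470) and Itgam (-0.92, adjusted p = 0.0458). Itgb5 (-0.74, adjusted p = 0.0998), Itgav (-0.56, adjusted p = 0.185) and Itgb2 (-0.33, adjusted p = 0.243) did not. Calls over all genes also fell in that fit, from 3820 of 11756 to 1173 of 11110. Without cells of blood lineages the same 6 chains were called as with them. Within the GFP+ other cells the i.v. and i.c.v. mice lay apart for Itgb7, whose 4 values spread from 0.325 to 90.6 CPM. They also lay apart for Itgax, Itgal, Itgb2, Itgb5, Itgam, Itgav and Itga6, but not for Itga4 or Itgb1. Itgb5 was 300 and 249 CPM after i.v. and 727 and 635 CPM after i.c.v. dosing in the female and male. Itgam was 185 and 190 CPM against 505 and 314 CPM, so the GFP+ means above join routes that differ.

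**Figure D5:**
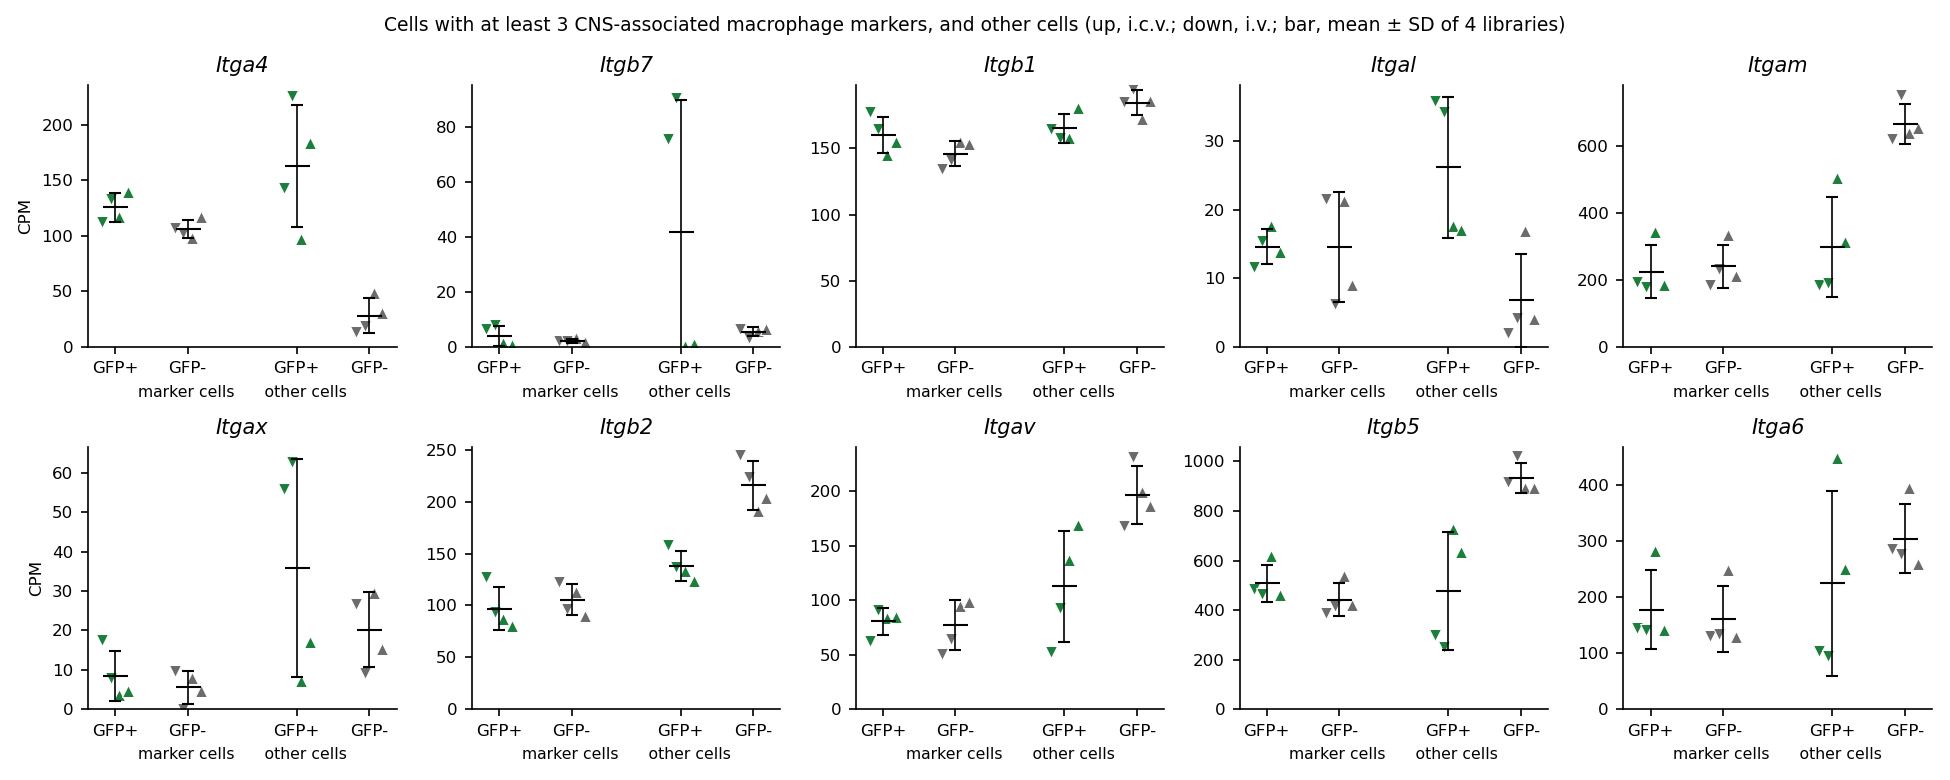
Level of each chain in CPM (vertical axes, from 0) in cells with at least 3 CNS-associated macrophage markers and in all other cells, for GFP+ (green) and GFP- (grey) libraries; upward triangles are i.c.v., downward i.v., and bars mean ± SD of 4 libraries. For Itga4 the sorts lie at 125 and 106 CPM in marker-bearing cells and at 162 and 28.0 CPM in other cells.

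The treatment-naive populations have 1 library each and allow no test. The PBMC library kept 341 of 2500 barcodes, with B cell markers in 40.2% and monocyte markers in 35.2% of those cells. Blood held more Itga4, Itgal and Itgb7 and less Itgb5 and Itgav than any of the treated libraries or the naive microglia. PBMCs held 425 CPM of Itga4 (95% exact Poisson interval 401 to 451), above the 110.1 to 172 CPM of GFP+ libraries and the 46.6 CPM (34.1 to 62.1) of naive microglia, which lay within the GFP- range. Itgal was 355 CPM (333 to 379) in PBMCs and 11.1 CPM (5.56 to 19.9) in naive microglia. Itgb7 was 193 CPM (177 to 211) in PBMCs and 17.2 CPM (10.0 to 27.6), from 17 UMIs, in naive microglia, above all 4 GFP- libraries. The naive microglia library had blood-lineage markers in 0.863% of its cells, with neutrophil markers summing to 9230 CPM, and without those cells it gave 16.4 CPM of Itgb7, 23.0 CPM of Itga4 and 4.38 CPM of Itgal.

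Itgb5 went the other way, 16.3 CPM (11.8 to 22.0) in PBMCs and 966 CPM (905 to 1029) in naive microglia, and Itgav was 38.4 CPM (31.3 to 46.6) in PBMCs and 89.1 CPM (71.4 to 110) in naive microglia. GFP+ libraries, at 374 to 656 CPM of Itgb5, lay between the blood library and naive microglia, but the stricter cell filter, which left 142 naive microglia, gave those 520.1 CPM, within the GFP+ range of 365 to 657 CPM under it. For Itgav the naive microglia lay within the GFP+ range and below the GFP- range. Itgam was 509 CPM (482 to 537) in PBMCs and 532 CPM (488 to 580) in naive microglia, both above the GFP+ range, and 398 and 298 CPM with the stricter filter, where the GFP+ range was 181 to 393 CPM. Itgb2 was 449 CPM (424 to 475) and 235 CPM (206 to 267), Itgb1 332 CPM (311 to 355) and 185 CPM (159 to 214), Itga6 263 CPM (243 to 283) and 194 CPM (168 to 224), and Itgax 25.8 CPM (20.1 to 32.8) and 18.2 CPM (10.8 to 28.8). With the stricter filter the order of Itga6 turned, to 90.3 CPM in PBMCs and 148 CPM in naive microglia.

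The astrocyte library and the library labelled as neurons held 0 UMIs of Itgb7, Itgax, Itgal and Itgb2, which allows up to 0.624 and 0.807 CPM at a floor of 3 counts, and 2 and 0 UMIs of Itgam. They kept Itgav at 99.9 and 62.4 CPM and Itgb1 at 82.4 and 117 CPM, and Itga6 at 109 CPM in astrocytes and 3.23 CPM in the other library.

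Whether the chains of a pair were found in the same cells was counted after thinning to 1000 UMIs. Among GFP+ cells of the i.v. female, 30.6% of 49 cells with Itgal also had Itgb2, beside 12.1% of the remaining cells, and in the i.v. male 14.7% of 34 beside 10.4%, while in the i.c.v. female 6.67% of 30 and in the i.c.v. male 8.57% of 35 had it, beside 9.15% and 8.42%. In the PBMC library the values were 36.7% and 21.3%. Itgb2 was found in 8.42% to 14.2% of GFP+ cells with Itgam, beside 8.42% to 12.0% of those without it. Itga4 and Itgb7 met in 6 of 298 and 5 of 233 cells with Itga4 in the GFP+ libraries of the i.v. mice and in none of the 318 and 166 of the i.c.v. mice. Most chains were seen in a minority of cells at this depth, and these counts are a description only.

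The other integrin chains, the intracellular partners, the ligands and the rolling and entry receptors place the 10 chains among their pathway, to be read beside the 16.6% and 15.9% of all genes that rose and fell between the sorts. Of 18 other integrin chains 6 could be tested, none rose and 2 fell in GFP+ cells: Itgb3, the beta 3 chain of vitronectin receptors, from 29.7 ± 7.47 to 2.86 ± 1.60 CPM (log2 -3.12, edgeR adjusted p = 4.8e-04), and Itga9, from 50.6 ± 5.73 to 27.6 ± 6.65 CPM (-0.60, adjusted p = 0.0192). Their median log2 difference was -0.70.

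Of 31 tested activators and adaptors, which link integrin tails to actin and to signalling, 2 rose and 8 fell, with a median of 0.06. Tyrobp, the DAP12 adaptor, rose by 0.54 and Cyth1 by 0.69, while Tln2, a talin, fell by 0.93, Apbb1ip, the RIAM protein that brings talin to integrins, by 0.86, Lims1 by 0.65 and Parvg by 0.57 on the log2 scale. Apbb1ip went from 440.3 ± 61.7 to 199 ± 30.7 CPM (edgeR adjusted p = 0.00149). By route in GFP+ cells 3 of the 31 were higher after i.v. dosing and none lower, where 2.56% and 0.215% of all genes tested were.

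Of 17 tested ligands and counter-receptors 3 rose and 3 fell, with a median of 0.09. Vcam1, the ligand of alpha 4 beta 1, rose from 259 ± 111 to 548 ± 253 CPM (log2 1.33, edgeR adjusted p = 0.0346) and Adam9 by 0.48, while Icam1, the ligand of LFA-1, fell from 385 ± 67.1 to 182 ± 47.2 CPM (-0.80, adjusted p = 0.0102) and Jam2 from 35.1 ± 9.19 to 3.99 ± 2.5 CPM (-2.86). By route in GFP+ cells none of the 20 tested was called. Vcam1 RNA here is that of the sorted myeloid cells, not of the vessel wall.

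Of 20 tested rolling and entry receptors 3 rose and 6 fell, with a median of 0.17. Cxcr4, the receptor that holds stem cells in marrow, rose from 69.4 ± 51.4 to 240 ± 79.2 CPM (log2 2.02, edgeR adjusted p = 0.0293), Ccr1 by 1.24 and Cd47, a self signal that also binds integrins, by 0.56. Selplg, the P-selectin ligand, fell from 1227 ± 270.2 to 309 ± 116 CPM (-1.71, adjusted p = 0.00141), and the tetraspanins Cd9 and Cd81, which sit beside integrins in the membrane, fell by 1.30 and 0.75 on the log2 scale. By route in GFP+ cells 6 of 21 were higher after i.v. dosing and none lower, where 2.56% and 0.215% of all genes tested were. Cd47 was among the 6 (0.61, edgeR adjusted p = 0.0426), in the libraries that also held the blood-lineage cells.

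The genes whose levels ran closest to a called chain over all 12 libraries were named by Pearson r of log2(CPM + 1), with 9668 genes compared and no test, and the points share depth and cell makeup. For Itga4 they were Prdx5 (0.96), Gbp3 and Cyp4f18, for Itgal Gm8369 (0.99), AC163018.1 and C3, and for Itgam Cd37, Il16 and Ikzf1, each above 0.99. For Itgb2 they were Psd4, Nfam1 and Plcg2, for Itgb5 Pald1 (0.99), Slco2b1 and Zfp658, and for Itgav Tor1b (0.97), Mdm4 and Zfyve26. Pald1 stood at 52.7 CPM in GFP+, 119 in GFP- and 0.38 in PBMC libraries, the order of Itgb5, and Ikzf1 at 96.1, 220.0 and 192 CPM.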

How the data were processed

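Raw gene-by-barcode UMI counts, made and deposited by the authors with Cell Ranger 3.1.0 and the mm10 genome, were used for 12 single-cell 3-prime libraries. Sums per library took barcodes that had 200 genes or more and no more than 10% mitochondrial UMIs. The authors' further filters, clusters and normalization were not used. Levels are CPM without length scaling. The comparisons were fitted over libraries with edgeR 4.0.16 in R 4.3.3 (TMM, filterByExpr, quasi-likelihood F test, two-sided, Benjamini-Hochberg over all genes tested, called at an adjusted p under 0.05), and with DESeq2 1.42.0 as an alternative. Replicates are mice, 2 per route, each giving a GFP+ and a GFP- library. The mouse pairs the libraries, since both came from the same animal, although the deviations from the sort means correlated at 0.20, -0.28, -0.33 and 0.01 in the 4 mice. Two-sided exact permutation tests compared CPM of 4 against 4 libraries and did not keep the pairing by mouse.

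Cells with at least 3 detected markers of a list, counted at the cells' own depth, were put in that marker class, and a cell may be in several. No doublet caller was run. The most barcodes shared by a pair of libraries was 8, and the largest share of the smaller library, in another pair, was 0.348%. Positions are from GENCODE M21 (GRCm38). The chains, marker lists and pathway lists were chosen with earlier results of these data known. Of each pathway list, called genes are named, at most 4 per direction by size among those with 20 CPM or more in the higher sort. A gene that this rule names is not reported here. For each called chain, the 3 closest genes are named. On simulated counts with 200 genes changed 4-fold, the fits recovered 100% (sorts), 98.5% (route, GFP+), 99% (route, GFP-) and 79% (interaction), and 4.31%, 1.99%, 7.48% and 5.39% of their calls were false. The changed genes lay above 20 CPM, all genes had the same spread between libraries, and no mouse effect was simulated. Recovery of smaller differences or of genes at lower levels was not tested. Library totals, the low-count filter, cell filters, thinning, covariates, blocks and omitted libraries were tried as alternatives.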

Additional observations from a re-analysis of the deposited data

Results flagged for a closer look

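Itgal in the i.c.v. female's GFP- library stood at 18.4 CPM, apart from the other 3 GFP- libraries, with a gap of 0.922 of the group's whole range. It was the 1 of 20 groups of 4 libraries (10 chains in 2 sorts) to show such a gap, and chance alone gives about 1 in 20. The neutrophil-marked cells of that library held 18.1% of its Itgal UMIs, and without cells of blood lineages it still stood at 14.9 CPM, beside 2.62 to 3.80 CPM in the other 3.

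The Itgb7 difference between GFP+ and GFP- cells depended on the route, with an interaction of 6.10 on the log2 scale (edgeR adjusted p = 0.00673). It was called under all 19 alternatives, from 5.30 to 7.77. The blood-lineage cells, 3.35% and 4.68% of the GFP+ cells in i.v. mice and 0% and 0.113% in i.c.v. mice, moved with it.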

How the results depend on the processing

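Of the 6 chains called between the sorts, Itga4 kept its call in 22 of 22 alternatives, Itgam in 21, Itgav in 18, Itgal in 15, and Itgb2 and Itgb5 in 12 each, all in the same direction. The number called ran from 2 to 7 with a library left out. It was 3 without cells bearing CNS-associated macrophage markers, where calls over all genes also fell from 3820 of 11756 to 1173 of 11110. Itgb7 reversed to a called -2.57 with the i.c.v. mice alone. Itgax (-1.24, i.c.v. mice alone) and Itgb1 (-0.14 with library totals alone, -0.13 with thinned cells), never called, also changed sign. For the route in GFP+ cells the number was 1 with all deposited barcodes, with the stricter cell filter (500 genes, 5% mitochondrial UMIs), with thinned cells and without blood-lineage cells, 6 without macrophage-marked cells, 3 with DESeq2 and with no filter on low counts, and 1 to 2 with a library left out. For the route in GFP- cells it was 1 with DESeq2 and with no filter on low counts, and 0 to 1 with a library left out (Itgal, -2.26, without the i.c.v. male's GFP- library). For the interaction it was 4 with DESeq2 and with no filter, 5 without macrophage-marked cells, 2 with the mouse as a replicate block and 1 to 2 with a library left out. The replicate block left 5 chains called between the sorts (Itgb5 lost), and changed no other call between the sorts. Scaling by library totals alone and leaving out macrophage-marked cells were chosen after seeing the data. The causes were not tested. Of 219 sort differences over 22 alternatives, 181 stayed on their side of the threshold, 32 lost the call, 5 gained one and 1 reversed. Of 80 naive levels under other cell filters, 38 moved beyond their counting interval. The 2 against 2 contrasts cannot show small route differences.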
